A study of Pan troglodytes with 8 samples.

Results

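Intermediate progenitors and basal radial glia, the progenitors that occupy the space above the ventricular zone of the developing cortex, were compared in sorted cells of chimpanzee cerebral organoids. The comparison used 4 libraries of the 8 in the series, 2 of basal intermediate progenitors (bIP) and 2 of basal radial glia (bRG), each picked by the population named in its title. The other 4 libraries, 2 of apical radial glia (aRG) and 2 of BCL11B-positive neurons (N), entered the shared estimate of spread and are given as side values. No treatment is named in the labels, and all organoids were grown from the induced pluripotent stem cell line SandraA of Pan troglodytes, and were taken at week 8 of culture, give or take 3 days. Cells were separated by fluorescence-activated sorting, and RNA of 10000 cells was amplified for each library. A single line limits the comparison to 1 genetic background. The labels used here name BCL11B for the neurons and no sorting protein for the other gates, so a transcript whose protein set a gate would not be an independent result. Nor do they state if both libraries of 1 population stem from different cultures, so the p-values rest on a spread among libraries that may be technical.

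Basal radial glia keep a long basal fibre, contact with the matrix at the pial side and the capacity to renew themselves. Intermediate progenitors are short-lived, mostly fibre-free daughters of radial glia, which carry EOMES and divide into neurons. Notch signalling holds radial glia in the stem state, where receptors on the glial cell answer ligands made by neighbouring intermediate progenitors and newborn neurons, and the repressor HES1 keeps the proneural factors low. FGF signalling through the MAP kinase cascade acts in radial glia beside it, with the factors ETV4 and ETV5 and the Sprouty and DUSP6 inhibitors as its transcribed readouts.

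Library totals on the chimpanzee genome panTro6 were 25888197 and 24707801 counts in bIP and 28800481 and 28865049 in bRG. Levels are in CPM, read counts scaled to library size with TMM factors (trimmed mean of M values), and fold changes are bIP minus bRG on the log2 scale, so 1 unit is a doubling. Brackets after levels give the log2 fold change, its standard error (SE) and the p-value adjusted over all genes tested. Libraries numbered 1 differed from those numbered 2 in both populations. MALAT1, an abundant nuclear RNA, took 8.57% and 7.33% of counts in number 1 of bIP and bRG and 6.47% and 4.90% in number 2. SLC1A3, a glutamate transporter of radial glia, stood at 4.82 and 44.8 CPM in the bIP libraries and 30.2 and 226 in the bRG libraries, so it was higher in number 2 of each population by more than the populations differed. For this reason the values of each library, or the difference within each number, stand beside the results. The difference within a number is a log2 ratio of CPM with 1 CPM added to each level, not the fitted fold change. The 2 measures differ, so a fitted list median can lie outside both medians within numbers. In sorted bulk samples fewer cells of a type and less RNA per cell cannot be told apart.

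The median log2 fold change of all 35382 genes tested was −0.00420. Both bIP libraries lay above both bRG libraries for 6646 of them and below both for 7344, together 39.5%. Each count of separate libraries in a list below is to be read beside these shares. With the quasi-likelihood test of edgeR 3253 genes had an unadjusted p under 0.05, 1405 of them higher and 1848 lower. In all 365 passed a Benjamini-Hochberg adjusted p of 0.05 (1.03%), 162 higher in bIP (0.458%) and 203 lower (0.574%). The count was 140 without bIP replicate 2, 209 without bIP replicate 1, 241 without bRG replicate 1 and 358 without bRG replicate 2. Genes called higher numbered 61 without bRG replicate 1, 105 without bIP replicate 1 and 56 without bIP replicate 2. Genes called lower numbered 104 without bIP replicate 1 and 84 without bIP replicate 2, and 180 without bRG replicate 1.

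**Figure D1:**
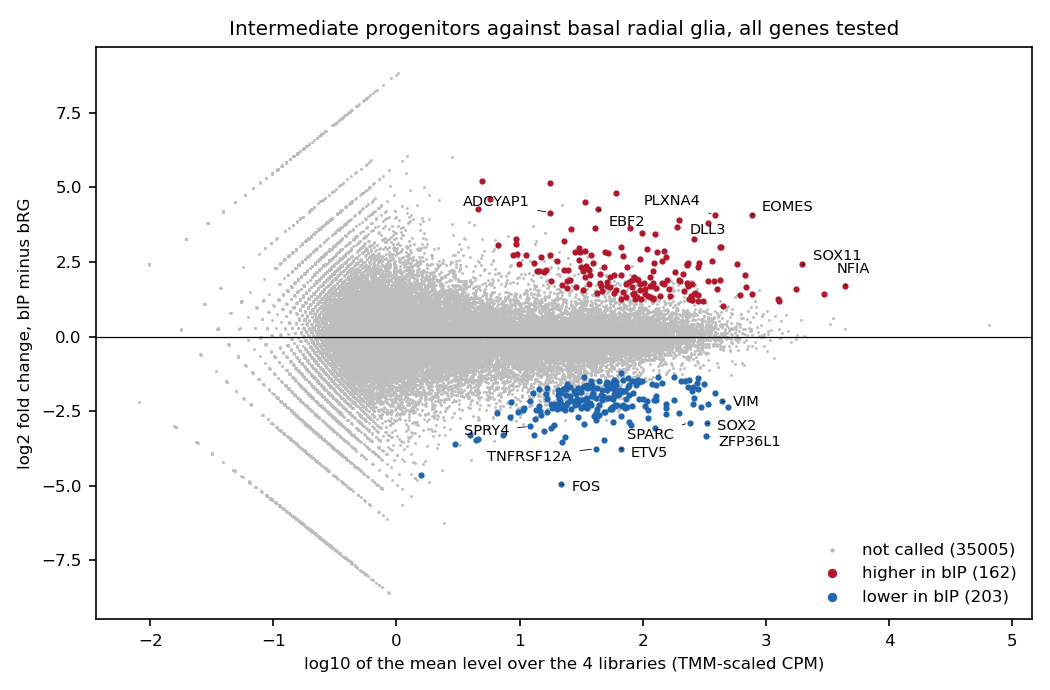
Each point is 1 gene, with log10 of its mean level over the 2 bIP and 2 bRG libraries on the horizontal axis (TMM-scaled CPM) and the log2 fold change, bIP minus bRG, on the vertical axis. The 162 genes called higher in bIP are red and the 203 called lower are blue, and 12 genes at 0 in all 4 libraries are not drawn. EOMES and PLXNA4, each at 4.08, lie high among called genes and FOS, at −4.96, lies lowest among them.

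Transcription factors of intermediate progenitors were higher in bIP, and none of the list fell. EOMES, the T-box factor that defines these cells, was at 1357 and 1540.3 CPM in the bIP libraries and 49.1 and 122 in the bRG libraries (log2 fold change 4.08, SE 0.56, adjusted p = 0.00684), and at 90.4 and 184 CPM in aRG and 31.2 and 10.96 in N. Both bIP libraries were thus above every other library of the series. INSM1, a zinc-finger factor that promotes the birth of basal progenitors, was at 73.6 and 76.8 CPM in bIP against 7.33 and 4.85 in bRG (3.63, SE 0.59, adjusted p = 0.0137). SOX11 and SOX4 are SoxC factors of early neurogenesis. SOX11 was at 2867 and 3776 CPM in bIP against 582 and 662 in bRG (2.42, SE 0.29, adjusted p = 0.00547). SOX4 was at 4255 and 4401 CPM in bIP against 1518 and 1723 in bRG (1.42, SE 0.25, adjusted p = 0.0187). Of the 11 factors in the list 8 rose, none fell and the libraries of the 2 populations were separate for all 11, with a median log2 fold change of 2.42 (2.49 and 2.12 within numbers 1 and 2).

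Proneural factors of the basic helix-loop-helix class rose in part. NEUROG2, which starts neurogenesis in dorsal progenitors, was at 386 and 323 CPM in bIP against 92.5 and 114 in bRG (1.78, SE 0.28, adjusted p = 0.0120), and its relative NEUROG1 at 78.7 and 40.4 CPM in bIP against 5.64 and 10.6 in bRG (2.87, SE 0.46, adjusted p = 0.0158). NHLH1, a factor of newly committed cells, was at 538 and 721 CPM in bIP against 39.4 and 49.8 in bRG (3.82, SE 0.66, adjusted p = 0.0181). HES6, a HES family member that opposes HES1, was at 277 and 409.6 CPM in bIP against 61.7 and 97.1 in bRG (2.11, SE 0.36, adjusted p = 0.0179). The later factors did not pass with edgeR, while NEUROD1, NEUROD4 and NEUROD6 passed with DESeq2 (adjusted p = 0.00375, 0.00847 and 0.0380). NEUROD1 was at 43.5 and 105 CPM in bIP against 6.45 and 23.4 in bRG (adjusted p = 0.171), NEUROD4 at 21.6 and 31.9 CPM in bIP against 3.02 and 6.21 in bRG (adjusted p = 0.238) and NEUROD6 at 813 and 884 CPM in bIP against 188 and 462 in bRG (adjusted p = 0.254), where bRG replicate 2 was the higher of the 2 bRG libraries each time. Of 13 proneural genes tested 3 rose and none fell, and 10 had both bIP libraries above both bRG libraries. DESeq2 called 7 of the list higher and 0 lower, and the human table gave 4 and 0. SOX4, NEUROG2 and NEUROG1 lost the call without bIP replicate 1 (adjusted p = 0.0549 to 0.0788) and SOX4 and HES6 without bIP replicate 2 (adjusted p = 0.109 and 0.0893). SOX4, NEUROG2 and HES6 lost the call without bRG replicate 1 (adjusted p = 0.0545 to 0.0977).

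Of 15 signalling and other members of the intermediate progenitor list 6 rose. SSTR2, a somatostatin receptor, was at 528 and 999 CPM in bIP against 55.3 and 134 in bRG (3.01, SE 0.49, adjusted p = 0.0140). PPP1R17, a phosphatase inhibitor, was at 97.8 and 263 CPM in bIP against 13.7 and 18.4 in bRG (3.48, SE 0.63, adjusted p = 0.0235). IGFBPL1, a secreted protein related to the insulin-like growth factor binding proteins, was at 932 and 1028 CPM in bIP against 137 and 224 in bRG (2.44, SE 0.31, adjusted p = 0.00583). ELAVL4, a neuronal RNA-binding protein, was at 592 and 755 CPM in bIP against 171 and 194 in bRG (1.88, SE 0.25, adjusted p = 0.00650). TMEM158, a membrane protein, was at 54.3 and 55.1 CPM in bIP against 12.6 and 14.9 in bRG (1.99, SE 0.37, adjusted p = 0.0248). PENK, the enkephalin precursor, was at 1.05 and 1.38 CPM in bIP against 1.20 and 2.11 in bRG (adjusted p = 0.987), and RASGRP1, a Ras activator, at 43.0 and 149.9 CPM in bIP against 29.1 and 26.5 in bRG (adjusted p = 0.111). In the whole list of 26 tested genes 14 rose and none fell, with a median of 2.05. Genes called higher in it numbered 10 without bRG replicate 1, 14 without bRG replicate 2, 11 without bIP replicate 1 and 10 without bIP replicate 2. DESeq2 called 20 of the list higher and 0 lower, and the human table gave 14 and 0. TMEM158 lost the call without bIP replicate 1 (adjusted p = 0.0756) and PPP1R17 and TMEM158 without bIP replicate 2 (adjusted p = 0.0946 and 0.0984). TMEM158 lost the call without bRG replicate 1 (adjusted p = 0.130) and TMEM158 without bRG replicate 2 (adjusted p = 0.0569).

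**Figure D2:**
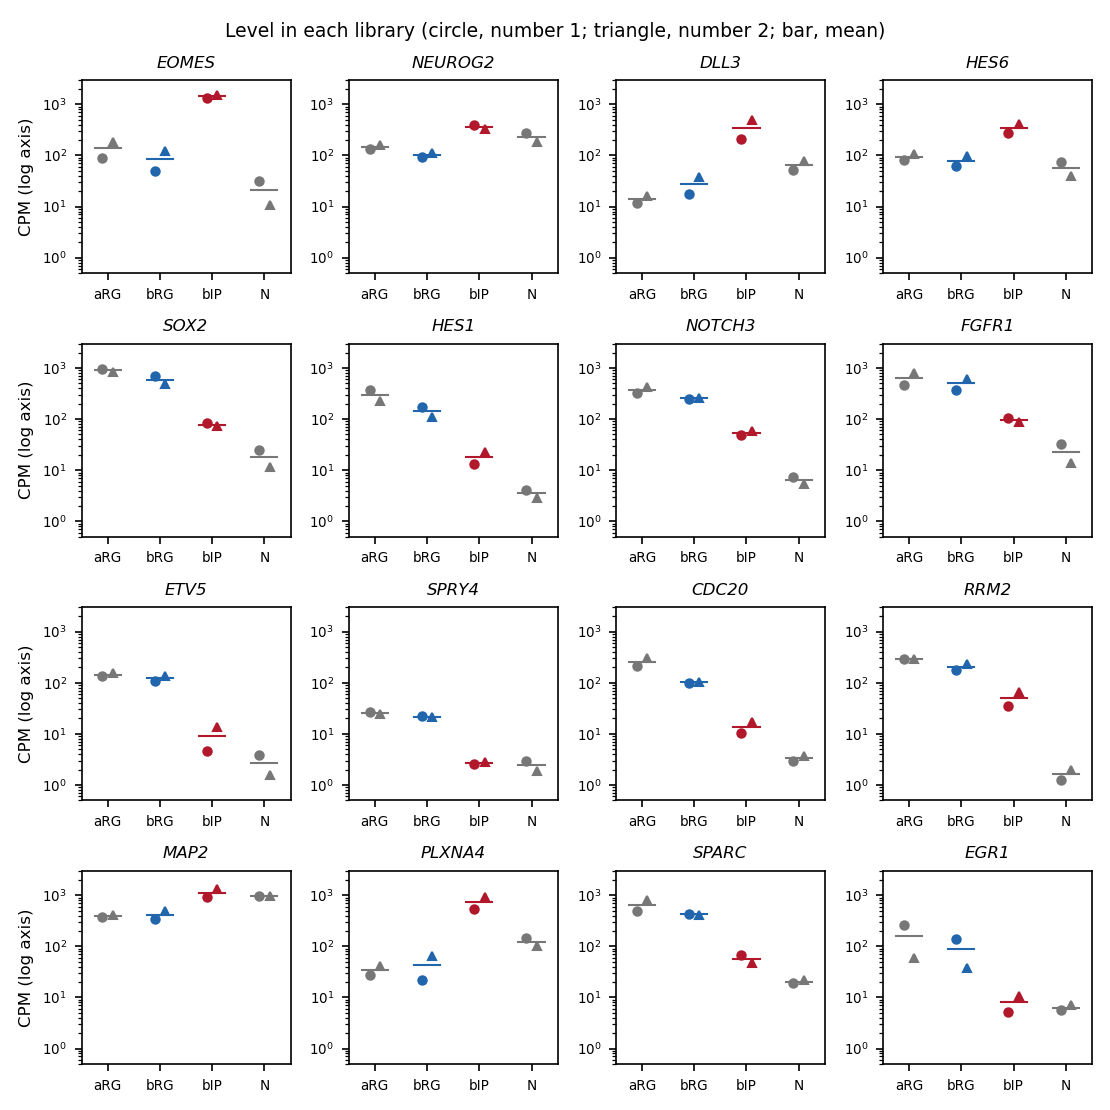
CPM on a log axis in each of the 8 libraries for 16 genes, with circles for libraries numbered 1, triangles for those numbered 2 and bars for means; bIP is red, bRG blue, aRG and N grey. EOMES, NEUROG2, DLL3, HES6, MAP2 and PLXNA4 have both bIP libraries above both bRG libraries, and the other 10 genes have both below.

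Among transcription factors of radial glia some fell in bIP and NFIA rose. SOX2, a neural stem cell factor, was at 83.2 and 72.6 CPM in the bIP libraries and 696 and 477 in the bRG libraries (log2 fold change −2.91, SE 0.35, adjusted p = 0.00547), and at 958 and 850.0 CPM in aRG and 24.98 and 11.7 in N. GLI3, a repressor of the hedgehog pathway, was at 139 and 102 CPM in bIP against 367 and 409 in bRG (−1.68, SE 0.30, adjusted p = 0.0206). PAX6, the dorsal progenitor factor, was at 122 and 101 CPM in bIP against 176 and 145 in bRG (−0.53, SE 0.37, adjusted p = 0.824) and did not pass. SOX9, another stem cell factor, was at 92.6 and 51.5 CPM in bIP against 273 and 141 in bRG (adjusted p = 0.153), with both bIP libraries below both bRG libraries. NFIA, a nuclear factor I protein, was at 7208 and 6292 CPM in bIP against 2031 and 2092 in bRG (1.71, SE 0.23, adjusted p = 0.00677). Its relative NFIB was at 1696 and 1853 CPM in bIP against 645 and 894 in bRG (1.21, SE 0.24, adjusted p = 0.0344).

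Several structural and secreted products of radial glia fell. VIM, the intermediate filament of the glial fibre, was at 167 and 153 CPM in bIP against 775 and 669 in bRG (−2.17, SE 0.28, adjusted p = 0.00607). NES, its partner filament nestin, was at 55.2 and 34.3 CPM in bIP against 161 and 109 in bRG (adjusted p = 0.390). TTYH1, a chloride channel protein of neural stem cells, was at 186 and 136 CPM in bIP against 947 and 721 in bRG (−2.37, SE 0.26, adjusted p = 0.00547). PTN, the growth factor pleiotrophin, was at 97.1 and 138 CPM in bIP against 378 and 751 in bRG (−2.26, SE 0.39, adjusted p = 0.0181), and CLU, the secreted chaperone clusterin, at 180.4 and 150.5 CPM in bIP against 513 and 716 in bRG (−1.89, SE 0.33, adjusted p = 0.0189). PTPRZ1, the pleiotrophin receptor, did not pass, at 566 and 698 CPM in bIP against 358 and 436 in bRG (adjusted p = 0.424). Of 20 shared radial glia genes tested 8 fell and 1 rose, with a median of −1.56 (−1.46 and −1.54 within numbers 1 and 2). Genes called lower in it numbered 8 without bRG replicate 1, 9 without bRG replicate 2, 6 without bIP replicate 1 and 5 without bIP replicate 2. DESeq2 called 1 of the list higher and 10 lower, and the human table gave 1 and 8. NFIB, PTN and CLU lost the call without bIP replicate 1 (adjusted p = 0.0614 to 0.123) and GLI3, NFIB and CLU without bIP replicate 2 (adjusted p = 0.142 to 0.231). NFIB lost the call without bRG replicate 1 (adjusted p = 0.305). NFIB lost the call with only the 4 libraries fitted (adjusted p = 0.0707).

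Genes used as markers of basal radial glia split into a lower group and a group that did not pass. FAM107A, an actin-bundling protein, was at 4.19 and 4.44 CPM in bIP against 35.4 and 31.6 in bRG (−2.95, SE 0.36, adjusted p = 0.00547), with aRG at 31.9 and 41.8 CPM. QKI, an RNA-binding protein of glia, was at 77.1 and 69.0 CPM in bIP against 260.4 and 173 in bRG (−1.57, SE 0.28, adjusted p = 0.0222), and GFAP, a glial filament, at 3.88 and 5.90 CPM in bIP against 38.3 and 18.7 in bRG (−2.54, SE 0.53, adjusted p = 0.0430). HOPX, a homeodomain-only protein, was at 6.49 and 7.32 CPM in bIP against 33.5 and 28.2 in bRG (−2.16, SE 0.46, adjusted p = 0.0501), just past the threshold on the side of no call. TNC, the matrix protein tenascin C, was at 20.5 and 17.7 CPM in bIP against 52.0 and 163 in bRG (adjusted p = 0.0732), and LIFR, a receptor of the STAT3 pathway, at 13.2 and 13.5 CPM in bIP against 28.7 and 47.8 in bRG (adjusted p = 0.0706). STAT3 itself was at 112 and 133 CPM in bIP against 105 and 95.6 in bRG (adjusted p = 0.931) and MOXD1, a monooxygenase, at 0.155 and 3.97 CPM in bIP against 3.24 and 3.40 in bRG (adjusted p = 0.987). Of 22 genes 3 fell and none rose, with a median of −0.94 (−0.81 and −0.75 within numbers 1 and 2). Both bIP libraries were below both bRG libraries for 13, beside 7344 of 35382 over all genes tested. The 14 membrane and secreted members had a median of −1.20 and the 8 nuclear and signalling members 0.23. The list summed to 1317 and 1424 CPM in bIP and 1454 and 1630 in bRG. It summed to 1602 and 1861 CPM in aRG and 1840 and 1365 in N. Genes called lower in it numbered 2 without bRG replicate 1, 4 without bRG replicate 2, 1 without bIP replicate 1 and 1 without bIP replicate 2. DESeq2 called 0 of the list higher and 6 lower, and the human table gave 0 and 4. Counted on hg38, HOPX and LIFR passed the threshold (adjusted p = 0.0215 and 0.0196). HOPX, LIFR and TNC passed with DESeq2 (adjusted p = 0.000178, 0.00298 and 0.000371). QKI and GFAP lost the call without bIP replicate 1 (adjusted p = 0.0910 and 0.179) and QKI and GFAP without bIP replicate 2 (adjusted p = 0.177 and 0.113). QKI and GFAP lost the call without bRG replicate 1 (adjusted p = 0.123 and 0.229). GFAP lost the call in the human genome table (adjusted p = 0.0510) and GFAP with only the 4 libraries fitted (adjusted p = 0.0527).

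Notch transcripts were divided by role. Of the 3 receptors in the list 2 fell in bIP. NOTCH3 was at 48.4 and 58.3 CPM in bIP against 246 and 262 in bRG (−2.25, SE 0.27, adjusted p = 0.00547) and NOTCH2 at 23.8 and 22.8 CPM in bIP against 65.4 and 64.6 in bRG (−1.48, SE 0.28, adjusted p = 0.0281). NOTCH1 was at 156 and 103 CPM in bIP against 297 and 253 in bRG (adjusted p = 0.196). Among ligands DLL3, an atypical ligand that acts inside the cell that makes it, was at 211 and 492 CPM in bIP against 17.9 and 37.7 in bRG (3.66, SE 0.48, adjusted p = 0.00631), and at 11.5 and 16.5 CPM in aRG and 52.2 and 79.1 in N. DLL1, which activates receptors on neighbouring cells, was at 180.5 and 111 CPM in bIP against 73.4 and 49.5 in bRG (adjusted p = 0.108), with both bIP libraries above both bRG libraries. JAG1, a ligand of another class, was at 11.6 and 22.7 CPM in bIP against 25.1 and 20.5 in bRG (adjusted p = 0.921).

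Among Notch effectors HES1 was at 13.2 and 22.9 CPM in the bIP libraries and 172 and 112 in the bRG libraries (log2 fold change −2.97, SE 0.38, adjusted p = 0.00602). HEY1, a related repressor, was at 19.4 and 23.5 CPM in bIP against 61.0 and 23.2 in bRG (adjusted p = 0.553), and RBPJ, the DNA-binding partner of the receptors, at 445 and 455 CPM in bIP against 494 and 386 in bRG (adjusted p = 1.00). HES5, the other main effector in the cortex, is listed at 0 counts in all 8 libraries on panTro6. On the human genome hg38 the same libraries gave it 14.6 and 5.68 CPM in bIP and 92.3 and 14.1 in bRG (log2 fold change −2.39, SE 0.88, adjusted p = 0.221), where bRG replicate 1 stood apart from bRG replicate 2. The Fringe enzymes, which tune receptors to ligands, did not pass, with LFNG at 9.09 and 5.19 CPM in bIP against 25.03 and 26.2 in bRG (adjusted p = 0.0677) and MFNG at 64.7 and 39.8 CPM in bIP against 14.5 and 17.7 in bRG (adjusted p = 0.411). LFNG thus had both bIP libraries below both bRG libraries and MFNG both above. Counted on hg38, LFNG passed the threshold (adjusted p = 0.0377). LFNG, DLL1, MAML3 and NOTCH1 passed with DESeq2 (adjusted p = 0.000926, 0.00897, 0.00273 and 0.0481). MAML3, a coactivator, was at 90.4 and 92.4 CPM in bIP against 21.3 and 28.5 in bRG (adjusted p = 0.108). Over 27 Notch genes tested 3 fell and 1 rose, with a median of −0.39, and −0.15 and 0.02 within numbers 1 and 2. DESeq2 called 5 of the list higher and 5 lower, and the human table gave 1 and 4. NOTCH2 lost the call without bIP replicate 1 (adjusted p = 0.135) and NOTCH2 without bIP replicate 2 (adjusted p = 0.202). NOTCH2 lost the call without bRG replicate 1 (adjusted p = 0.0992) and NOTCH2 without bRG replicate 2 (adjusted p = 0.0753).

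FGFR1 and several readouts of the MAP kinase cascade fell. FGFR1 was at 105 and 89.0 CPM in bIP against 376 and 621 in bRG (−2.36, SE 0.42, adjusted p = 0.0204). FGFR2 was at 19.4 and 46.1 CPM in bIP against 90.1 and 112 in bRG (adjusted p = 0.142) and FGFR3 at 40.5 and 31.3 CPM in bIP against 65.4 and 84.0 in bRG (adjusted p = 0.201), both with separate libraries. FGFBP3, a secreted FGF binding protein, was at 52.1 and 35.0 CPM in bIP against 335 and 198 in bRG (−2.61, SE 0.35, adjusted p = 0.00684). ETV5, an ETS factor induced by FGF, was at 4.70 and 13.5 CPM in the bIP libraries and 109.8 and 137 in the bRG libraries (log2 fold change −3.76, SE 0.51, adjusted p = 0.00684), and its relative ETV4 at 5.20 and 1.02 CPM in bIP against 28.6 and 27.9 in bRG (−3.18, SE 0.59, adjusted p = 0.0248). ETV1, a related ETS factor, was at 27.0 and 38.4 CPM in bIP against 65.5 and 55.7 in bRG (adjusted p = 0.294).

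Among feedback inhibitors SPRY4 and DUSP6 fell. SPRY4, a Sprouty inhibitor of receptor tyrosine kinase signalling, was at 2.56 and 2.83 CPM in bIP against 22.7 and 20.9 in bRG (−3.01, SE 0.42, adjusted p = 0.00709), and DUSP6, the ERK phosphatase, at 11.5 and 8.89 CPM in bIP against 53.6 and 45.4 in bRG (−2.28, SE 0.35, adjusted p = 0.0117). SPRY2 was at 6.76 and 9.99 CPM in bIP against 18.9 and 20.6 in bRG (adjusted p = 0.234) and SPRED1 at 20.5 and 10.7 CPM in bIP against 52.7 and 49.1 in bRG (adjusted p = 0.0609). The ligand FGF2 was at 12.9 and 3.46 CPM in bIP against 21.5 and 13.5 in bRG (adjusted p = 0.710). Of 21 FGF genes tested 6 fell and none rose, and 15 had both bIP libraries below both bRG libraries and 0 both above. The median was −1.09 (−0.997 and −1.27 within numbers 1 and 2), and none of 6 ligands passed, while 0 higher and 1 lower had an unadjusted p under 0.05, and the number called by DESeq2 was 0. Genes called lower in it numbered 6 without bRG replicate 1, 6 without bRG replicate 2, 6 without bIP replicate 1 and 4 without bIP replicate 2. DESeq2 called 0 of the list higher and 9 lower, and the human table gave 0 and 7. Counted on hg38, SPRED1 passed the threshold (adjusted p = 0.0435). FGFR1 lost the call without bIP replicate 1 (adjusted p = 0.0614) and FGFR1 and DUSP6 without bIP replicate 2 (adjusted p = 0.123 and 0.0830). ETV4 lost the call with only the 4 libraries fitted (adjusted p = 0.0780).

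Mitosis transcripts had the lowest median of the 29 lists. CDC20, which activates the anaphase-promoting complex, was at 10.6 and 17.1 CPM in bIP against 100.2 and 103 in bRG (−2.87, SE 0.32, adjusted p = 0.00547). CCNB1, the mitotic cyclin, was at 21.6 and 25.6 CPM in bIP against 119.8 and 111 in bRG (−2.29, SE 0.27, adjusted p = 0.00547). TOP2A, which untangles chromosomes, was at 72.3 and 107 CPM in bIP against 448 and 402 in bRG (−2.25, SE 0.28, adjusted p = 0.00555), and ASPM, a spindle pole protein mutated in microcephaly, at 32.1 and 35.2 CPM in bIP against 207 and 167 in bRG (−2.48, SE 0.36, adjusted p = 0.00815). MKI67, a widely used proliferation marker, was at 43.3 and 90.4 CPM in bIP against 302 and 287 in bRG (−2.14, SE 0.33, adjusted p = 0.0117), above its level in N of 4.56 and 3.93 CPM. BUB1, a checkpoint kinase, was at 17.4 and 12.6 CPM in bIP against 74.97 and 72.2 in bRG (−2.29, SE 0.32, adjusted p = 0.00690), and UBE2C, which conjugates ubiquitin for mitotic exit, at 14.8 and 18.1 CPM in bIP against 62.1 and 61.5 in bRG (−1.91, SE 0.26, adjusted p = 0.00690). Of 32 genes 23 fell and none rose, 31 had both bIP libraries below both bRG libraries, and the median was −1.97 (−2.13 and −1.77 within numbers 1 and 2). Genes called lower in it numbered 19 without bRG replicate 1, 19 without bRG replicate 2, 10 without bIP replicate 1 and 10 without bIP replicate 2. DESeq2 called 0 of the list higher and 31 lower, and the human table gave 0 and 26. UBE2C lost the call without bIP replicate 1 (adjusted p = 0.0525) and BUB1 without bIP replicate 2 (adjusted p = 0.0535).

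DNA replication transcripts held 5 falls. RRM2, the regulated subunit of ribonucleotide reductase, was at 35.0 and 66.9 CPM in bIP against 178 and 231 in bRG (−2.003, SE 0.34, adjusted p = 0.0167). MCM5, a subunit of the replicative helicase, was at 31.8 and 29.7 CPM in bIP against 73.0 and 145 in bRG (−1.82, SE 0.36, adjusted p = 0.0363), and MCM6 at 40.6 and 39.3 CPM in bIP against 87.1 and 99.6 in bRG (−1.23, SE 0.26, adjusted p = 0.0492). GINS4, of the GINS helicase complex, was at 10.3 and 11.7 CPM in bIP against 29.2 and 44.9 in bRG (−1.76, SE 0.37, adjusted p = 0.0440) and LIG1, the ligase that joins Okazaki fragments, at 35.7 and 37.8 CPM in bIP against 84.0 and 119 in bRG (−1.47, SE 0.31, adjusted p = 0.0440). PCNA, the sliding clamp, was at 29.2 and 59.8 CPM in bIP against 57.6 and 84.6 in bRG (adjusted p = 0.720). Of 34 genes 5 fell and none rose, 30 had both bIP libraries below both bRG libraries, and the median was −1.30. Genes called lower in it numbered 8 without bRG replicate 1, 1 without bRG replicate 2, 0 without bIP replicate 1 and 3 without bIP replicate 2. DESeq2 called 0 of the list higher and 14 lower, and the human table gave 0 and 9. PIF1, a DNA helicase outside the list, was at 22.4 and 31.6 CPM in bIP against 191 and 256 in bRG (−3.05, SE 0.35, adjusted p = 0.00547). RRM2, MCM5, MCM6, GINS4 and LIG1 lost the call without bIP replicate 1 (adjusted p = 0.0902 to 0.208) and MCM5, MCM6, GINS4 and LIG1 without bIP replicate 2 (adjusted p = 0.193 to 0.319). MCM6 lost the call without bRG replicate 1 (adjusted p = 0.114) and MCM5, MCM6, GINS4 and LIG1 without bRG replicate 2 (adjusted p = 0.204 to 0.275). MCM5, MCM6, GINS4 and LIG1 lost the call with only the 4 libraries fitted (adjusted p = 0.0582 to 0.0756) and MCM6, GINS4 and LIG1 with DESeq2 size factors (adjusted p = 0.0510 to 0.0547).

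Regulators of G1 and of exit from the cycle did not pass in either direction with edgeR on all 8 libraries and the low-count filter. CDK6 was at 10.5 and 7.63 CPM in bIP against 17.2 and 12.3 in bRG (adjusted p = 0.959) and CCND2, a D-type cyclin, at 0.583 and 0.983 CPM in bIP against 0.713 and 0.756 in bRG (adjusted p = 1.00). CDKN1C, a kinase inhibitor of exiting cells, was at 34.1 and 31.0 CPM in bIP against 9.34 and 5.99 in bRG (2.09, SE 0.86, adjusted p = 0.458), and E2F1, the factor that opens S phase, at 12.0 and 7.75 CPM in bIP against 25.8 and 49.8 in bRG (adjusted p = 0.208). CDKN1C passed with only the 4 libraries fitted (adjusted p = 0.0447) and E2F1 with DESeq2 (adjusted p = 0.0158). Without the low-count filter both passed (adjusted p = 0.000305 and 0.000318). CCND1 and BTG2 are listed at 0 in all 8 libraries on panTro6. In the human table CCND1 was at 15.1 and 12.1 CPM in bIP and 42.8 and 19.0 in bRG (log2 fold change −1.18, SE 0.55, adjusted p = 0.366) and BTG2, an antiproliferative gene of neurogenic progenitors, at 51.4 and 36.4 CPM in bIP and 42.0 and 37.0 in bRG (log2 fold change 0.15, SE 0.36, adjusted p = 0.923). Of 20 genes tested 0 were called by edgeR, while 1 higher and 3 lower had an unadjusted p under 0.05, and DESeq2 made 0 higher calls and 1 lower call.

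**Figure D3:**
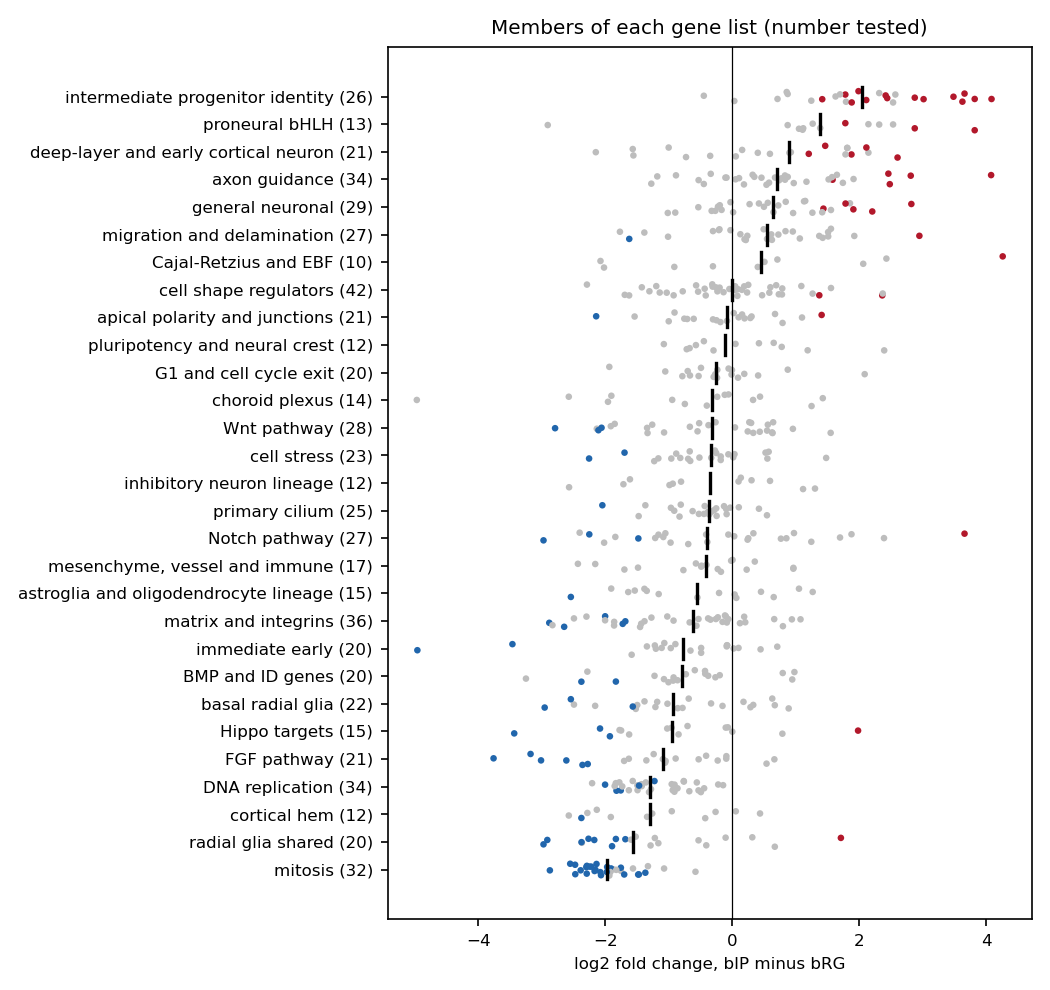
The log2 fold change of every tested member of 29 gene lists, bIP minus bRG, with the number tested in brackets; red points were called higher in bIP, blue points lower, grey points not called, and black bars are list medians. The intermediate progenitor list has the highest median at 2.05 and the mitosis list the lowest at −1.97.

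Neuronal transcripts were partly raised. MAP2, a dendritic microtubule protein, was at 913 and 1339 CPM in bIP against 348 and 485 in bRG (1.44, SE 0.26, adjusted p = 0.0243), and RBFOX3, a neuronal splicing factor, at 178 and 223 CPM in bIP against 33.5 and 53.3 in bRG (2.21, SE 0.31, adjusted p = 0.00690). CNTN2, an axonal adhesion molecule, was at 143 and 311 CPM in bIP against 27.9 and 36.4 in bRG (2.82, SE 0.47, adjusted p = 0.0158), above N at 24.3 and 54.7 CPM. SCN3A, a sodium channel of the fetal brain, was at 151 and 226 CPM in bIP against 47.4 and 62.0 in bRG (1.78, SE 0.31, adjusted p = 0.0188). DCX, the microtubule protein of migrating neurons, was at 1101 and 1526 CPM in bIP against 334 and 561 in bRG (adjusted p = 0.0680). SNAP25, a vesicle fusion protein, was at 64.2 and 75.9 CPM in bIP against 27.7 and 71.4 in bRG (adjusted p = 0.908) and STMN2, an axon growth protein, at 272 and 225 CPM in bIP against 114 and 187 in bRG (adjusted p = 0.629). Of 29 genes tested 5 rose and none fell. Genes called higher in it numbered 2 without bRG replicate 1, 8 without bRG replicate 2, 4 without bIP replicate 1 and 1 without bIP replicate 2. DESeq2 called 10 of the list higher and 0 lower, and the human table gave 6 and 0. The median was 0.65, but 1.24 within number 1 and 0.26 within number 2, and the summed level of the list was 6674 and 7514 CPM in bIP and 3163 and 5158 in bRG. The sum was higher in bRG replicate 2 than in bRG replicate 1, and its part in the result was not tested. MAP2, CNTN2 and SCN3A lost the call without bIP replicate 2 (adjusted p = 0.0703 to 0.237) and MAP2 and SCN3A without bRG replicate 1 (adjusted p = 0.176 and 0.0948). MAP2 lost the call with only the 4 libraries fitted (adjusted p = 0.0640).

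Deep-layer genes were also raised in part. BCL11B, the deep-layer factor named in the label of the neurons, was at 286 and 348 CPM in the bIP libraries and 59.0 and 113 in the bRG libraries (log2 fold change 1.88, SE 0.35, adjusted p = 0.0265), and at 42.9 and 73.9 CPM in aRG and 488 and 589.6 in N. FOXP2, a forkhead factor, was at 155 and 170.0 CPM in bIP against 33.6 and 19.9 in bRG (2.60, SE 0.52, adjusted p = 0.0349), ZFPM2, a cofactor of early corticothalamic cells, at 133 and 115 CPM in bIP against 37.3 and 52.4 in bRG (1.46, SE 0.27, adjusted p = 0.0229), and SLC17A6, a vesicular glutamate transporter, at 74.2 and 71.5 CPM in bIP against 14.5 and 19.2 in bRG (2.11, SE 0.32, adjusted p = 0.0115). TBR1, which follows EOMES in the glutamatergic lineage, was at 284 and 266 CPM in bIP against 50.2 and 109 in bRG (adjusted p = 0.0814). Of 21 genes 5 rose, NFIB among them, and none fell by edgeR, while 9 had an unadjusted p under 0.05 on the higher side and 4 on the lower. Both bIP libraries were above both bRG libraries for 9 and below for 5, beside 6646 and 7344 of 35382 over all genes tested. Log2 fold changes in the list ran from −2.15 to 2.60, and its lower members are not named here. The median was 0.90, with 0.19 and 1.05 within numbers 1 and 2, and 0.15 without bIP replicate 2. Genes called higher in it numbered 1 without bRG replicate 1, 7 without bRG replicate 2, 2 without bIP replicate 1 and 1 without bIP replicate 2. DESeq2 called 9 of the list higher and 2 lower, and the human table gave 7 and 0. Counted on hg38, TBR1 passed the threshold (adjusted p = 0.0466). EBF2, a factor of early differentiation and of Cajal-Retzius cells, was at 38.3 and 128 CPM in bIP against 2.63 and 6.02 in bRG (4.26, SE 0.66, adjusted p = 0.0118), with N at 0.889 and 2.37 CPM. RELN, the secreted product of Cajal-Retzius cells, was at 47.3 and 37.3 CPM in bIP against 25.3 and 26.4 in bRG (adjusted p = 0.844), and LHX5 at 1.98 and 0.354 CPM in bIP against 1.78 and 1.10 in bRG (adjusted p = 0.994). EBF2 was the sole edgeR call among the 10 tested genes of the Cajal-Retzius and EBF list. The median of that list was 0.45, with −0.08 and 0.54 within numbers 1 and 2. DESeq2 placed 3 of its members higher in bIP and 2 lower. Both lower ones were among the 4 members that are not transcription factors, whose median was −1.47. Log2 fold changes of these 4 ran from −2.08 to 0.71. Their levels summed to 92.8 and 58.7 CPM in bIP against 117 and 199 in bRG. FOXP2 and ZFPM2 lost the call without bIP replicate 1 (adjusted p = 0.0521 and 0.117) and BCL11B, FOXP2, ZFPM2 and EBF2 without bIP replicate 2 (adjusted p = 0.0698 to 0.113). BCL11B, ZFPM2 and SLC17A6 lost the call without bRG replicate 1 (adjusted p = 0.0521 to 0.198) and FOXP2 without bRG replicate 2 (adjusted p = 0.0710). ZFPM2 lost the call with only the 4 libraries fitted (adjusted p = 0.0533).

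Of the axon guidance genes 5 receptors rose, and no ligand passed. PLXNA4, a semaphorin receptor, was at 535 and 917 CPM in the bIP libraries and 21.6 and 64.4 in the bRG libraries (log2 fold change 4.08, SE 0.50, adjusted p = 0.00547), and at 27.1 and 41.3 CPM in aRG and 143 and 102 in N. PLXNA2 was at 471 and 504 CPM in bIP against 48.7 and 129 in bRG (2.46, SE 0.42, adjusted p = 0.0175), and NRP2, the neuropilin that pairs with plexins, at 371 and 415 CPM in bIP against 55.2 and 85.5 in bRG (2.48, SE 0.33, adjusted p = 0.00650). DCC, the netrin receptor, was at 65.4 and 119 CPM in bIP against 8.95 and 17.3 in bRG (2.81, SE 0.40, adjusted p = 0.00797), and ROBO1, the Slit receptor, at 197 and 295 CPM in bIP against 67.7 and 96.9 in bRG (1.58, SE 0.32, adjusted p = 0.0381). NRP1 was at 55.5 and 73.2 CPM in bIP against 15.0 and 23.4 in bRG (adjusted p = 0.0519). Counted on hg38, NRP1 passed the threshold (adjusted p = 0.0178). The ligand SEMA3C was at 6.41 and 6.25 CPM in bIP against 2.89 and 4.69 in bRG (adjusted p = 0.741), SLIT1 at 215 and 258 CPM in bIP against 109 and 216 in bRG (adjusted p = 0.741) and EFNB1, an ephrin, at 307 and 299 CPM in bIP against 628 and 839 in bRG (adjusted p = 0.133). Of 34 genes 5 rose and none fell, with a median of 0.71 (0.79 and 0.55 within numbers 1 and 2). Genes called higher in it numbered 4 without bRG replicate 1, 7 without bRG replicate 2, 7 without bIP replicate 1 and 4 without bIP replicate 2. DESeq2 called 9 of the list higher and 1 lower, and the human table gave 7 and 0. NRP1 and EFNB1 passed with DESeq2 (adjusted p = 0.000508 and 0.0193). SCRT2, a repressor of the Snail superfamily that acts in delamination and migration, was at 149 and 236 CPM in bIP against 16.7 and 33.2 in bRG (2.95, SE 0.43, adjusted p = 0.00846), whereas SNAI2 was at 0.583 and 0.865 CPM in bIP against 0.681 and 0.0630 in bRG (adjusted p = 0.963). ROBO1 lost the call without bIP replicate 2 (adjusted p = 0.274) and ROBO1 without bRG replicate 1 (adjusted p = 0.218). ROBO1 lost the call with only the 4 libraries fitted (adjusted p = 0.0564).

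Matrix and integrin transcripts were lower in bIP where they passed. SPARC, a matrix glycoprotein, was at 67.9 and 46.9 CPM in bIP against 429.9 and 417 in bRG (−2.88, SE 0.31, adjusted p = 0.00547). COL2A1, a fibrillar collagen, was at 9.36 and 12.6 CPM in bIP against 82.4 and 55.2 in bRG (−2.65, SE 0.32, adjusted p = 0.00547), and COL9A1, a collagen that binds such fibrils, at 24.9 and 46.7 CPM in bIP against 103 and 127 in bRG (−1.68, SE 0.31, adjusted p = 0.0248). The integrin chains ITGA2 and ITGA6, receptors for collagen and laminin, were at 22.3 and 24.5 CPM in bIP against 93.0 and 94.8 in bRG (−2.002, SE 0.28, adjusted p = 0.00684) and at 12.4 and 15.3 CPM in bIP against 51.2 and 40.3 in bRG (−1.73, SE 0.33, adjusted p = 0.0301). ITGB1, the shared beta chain, was at 131 and 129 CPM in bIP against 89.3 and 75.5 in bRG (adjusted p = 0.705), and ITGB5, reported in basal radial glia, at 2.02 and 5.03 CPM in bIP against 6.68 and 11.7 in bRG (adjusted p = 0.455). ITGA7 is listed at 0 on panTro6, and in the human table it was at 26.3 and 16.8 CPM in bIP and 64.8 and 74.2 in bRG (log2 fold change −1.69, SE 0.29, adjusted p = 0.0141). Of 36 genes tested 5 fell and none rose. Both bIP libraries were below both bRG libraries for 24 of them, beside 7344 of 35382 over all genes tested. The median of the list was −0.62 (−0.66 and −0.66 within numbers 1 and 2). Genes called lower in it numbered 6 without bRG replicate 1, 4 without bRG replicate 2, 3 without bIP replicate 1 and 4 without bIP replicate 2. DESeq2 called 0 of the list higher and 10 lower, and the human table gave 0 and 6. COL9A1 and ITGA6 lost the call without bIP replicate 1 (adjusted p = 0.158 and 0.168) and ITGA6 without bIP replicate 2 (adjusted p = 0.123). ITGA6 lost the call without bRG replicate 1 (adjusted p = 0.139) and COL9A1 without bRG replicate 2 (adjusted p = 0.0536). COL9A1 lost the call with only the 4 libraries fitted (adjusted p = 0.0707).

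Polarity genes were called in both directions. PROM1, an apical membrane protein, was at 12.7 and 10.7 CPM in bIP against 61.7 and 41.7 in bRG (−2.14, SE 0.33, adjusted p = 0.0117), and AFDN, which links nectins to actin, at 879 and 921 CPM in bIP against 374 and 304 in bRG (1.41, SE 0.24, adjusted p = 0.0181). CDH2, the N-cadherin of adherens junctions, was at 265 and 347 CPM in bIP against 210.0 and 325 in bRG (adjusted p = 0.975), and PARD3, a polarity scaffold, at 75.7 and 46.3 CPM in bIP against 64.7 and 74.2 in bRG (adjusted p = 0.992). Of 21 genes tested 1 rose and 1 fell by edgeR, with a median of −0.08. DESeq2 called 1 of the polarity list higher and 2 lower, and the human table gave 1 and 2. Of 42 regulators of actin, membrane and cell shape 2 rose and none fell, and 13 had both bIP libraries above both bRG libraries and 12 both below. Those that rose were RHOU, an atypical small GTPase (48.5 and 67.5 CPM in bIP against 10.5 and 12.0 in bRG; 2.36, SE 0.49, adjusted p = 0.0419), and TAGLN3, a neuronal actin-binding protein (188 and 210.1 CPM in bIP against 76.9 and 77.1 in bRG; 1.37, SE 0.26, adjusted p = 0.0281). PALMD, a membrane-bound protein studied for basal radial glia morphology, was at 8.31 and 4.52 CPM in bIP against 2.08 and 5.64 in bRG (adjusted p = 0.848), and ADD3, an adducin, at 78.5 and 62.7 CPM in bIP against 103 and 88.1 in bRG (adjusted p = 0.697). The median of this list was 0.00. DESeq2 called 5 of the cell shape list higher and 4 lower, and the human table gave 3 and 0. AFDN and TAGLN3 lost the call without bIP replicate 1 (adjusted p = 0.0680 and 0.0841) and PROM1, AFDN, RHOU and TAGLN3 without bIP replicate 2 (adjusted p = 0.0837 to 0.177). RHOU and TAGLN3 lost the call without bRG replicate 1 (adjusted p = 0.119 and 0.133) and AFDN, RHOU and TAGLN3 without bRG replicate 2 (adjusted p = 0.0647 to 0.104).

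Wnt, BMP and Hippo genes were called mostly on the lower side, beside 0.574% lower and 0.458% higher over all genes tested. Those shares include many genes at low levels. With a minimum of 5 CPM in 2 libraries 255 of 14955 genes were called lower and 206 higher. At that minimum 3 of 23, 2 of 14 and 3 of 12 genes of these lists were called lower, and 0, 0 and 1 higher. DESeq2 called 5, 3 and 4 genes of these lists lower and 0, 0 and 1 higher. The human table gave 3, 2 and 3 lower and 0, 0 and 1 higher. In the Wnt list 3 of 28 fell and none rose. FZD8, a receptor, was at 8.78 and 12.4 CPM in bIP against 66.5 and 80.0 in bRG (−2.79, SE 0.32, adjusted p = 0.00547), SFRP1, a secreted inhibitor, at 84.1 and 118 CPM in bIP against 317 and 527 in bRG (−2.06, SE 0.39, adjusted p = 0.0284), and TCF7L1, a repressor of Wnt targets, at 20.5 and 22.7 CPM in bIP against 86.1 and 101 in bRG (−2.11, SE 0.33, adjusted p = 0.0118). AXIN2, the feedback target, was at 21.1 and 20.9 CPM in bIP against 32.4 and 29.0 in bRG (adjusted p = 0.689). In the BMP list 2 of 20 fell, the ligand BMP7 (10.1 and 12.1 CPM in bIP against 38.9 and 76.1 in bRG; −2.38, SE 0.36, adjusted p = 0.0103) and ID4, an inhibitor of proneural factors (114 and 104 CPM in bIP against 452 and 327 in bRG; −1.83, SE 0.27, adjusted p = 0.00904). In the Hippo list 3 of 15 fell and 1 rose. YAP1, the coactivator, was at 14.4 and 11.5 CPM in bIP against 68.4 and 41.3 in bRG (−2.08, SE 0.37, adjusted p = 0.0204), its target CCN1 at 0.971 and 0.590 CPM in bIP against 7.23 and 9.74 in bRG (−3.43, SE 0.63, adjusted p = 0.0241) and AXL, a receptor kinase, at 13.7 and 10.3 CPM in bIP against 51.9 and 39.8 in bRG (−1.93, SE 0.35, adjusted p = 0.0226). AMOTL2, an angiomotin and YAP1 target, rose and was at 91.3 and 180.0 CPM in bIP against 27.8 and 40.9 in bRG (1.98, SE 0.36, adjusted p = 0.0220). SFRP1, TCF7L1, BMP7, YAP1, CCN1 and AXL lost the call without bIP replicate 1 (adjusted p = 0.0519 to 0.146) and SFRP1, TCF7L1, ID4, YAP1, CCN1, AXL and AMOTL2 without bIP replicate 2 (adjusted p = 0.0597 to 0.191). YAP1, AXL and AMOTL2 lost the call without bRG replicate 1 (adjusted p = 0.0868 to 0.0977) and SFRP1 and CCN1 without bRG replicate 2 (adjusted p = 0.0533 and 0.0897). AMOTL2 lost the call with only the 4 libraries fitted (adjusted p = 0.0532).

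Immediate early and stress genes held a few large falls. FOS was at 0.466 and 2.24 CPM in the bIP libraries and 48.3 and 36.2 in the bRG libraries (log2 fold change −4.96, SE 0.81, adjusted p = 0.0143), and EGR1 at 5.28 and 10.7 CPM in bIP against 139 and 37.5 in bRG (−3.46, SE 0.72, adjusted p = 0.0427), where bRG replicate 1 was far above bRG replicate 2. JUN was at 51.7 and 41.2 CPM in bIP against 44.0 and 47.5 in bRG (adjusted p = 1.00) and IER2 at 44.7 and 44.8 CPM in bIP against 81.5 and 59.8 in bRG (adjusted p = 0.704). Of 20 immediate early genes 2 fell and none rose. PHGDH, the first enzyme of serine synthesis, was at 114 and 105 CPM in bIP against 338 and 373 in bRG (−1.70, SE 0.29, adjusted p = 0.0175), and TRIB3, a target of the integrated stress response, at 6.72 and 8.26 CPM in bIP against 39.7 and 31.9 in bRG (−2.26, SE 0.39, adjusted p = 0.0189). Of 12 glycolysis and hypoxia genes 0 were called by edgeR, 0 had an unadjusted p under 0.05 and DESeq2 called 0, with a median of −0.02. RFX4, a ciliary and patterning factor, was the sole edgeR call among 25 cilium genes, at 21.2 and 11.1 CPM in bIP against 65.6 and 68.0 in bRG (−2.05, SE 0.35, adjusted p = 0.0176). Of these cilium genes 0 higher and 7 lower had an unadjusted p under 0.05. Both bIP libraries were below both bRG libraries for 12 and above for 2, beside 7344 and 6646 of 35382 over all genes tested. DESeq2 called 0 of the cilium list higher and 4 lower, and the human table gave 0 and 2. EGR1, PHGDH and TRIB3 lost the call without bIP replicate 1 (adjusted p = 0.0770 to 0.155) and EGR1, PHGDH, TRIB3 and RFX4 without bIP replicate 2 (adjusted p = 0.0830 to 0.137). EGR1 and TRIB3 lost the call without bRG replicate 1 (adjusted p = 0.0820 and 0.0731). EGR1 lost the call with at least 5 CPM in 2 libraries (adjusted p = 0.0540).

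Among the 20 largest rises were genes outside the lists. ADCYAP1, the neuropeptide PACAP, was at 31.1 and 35.8 CPM in bIP against 2.14 and 1.61 in bRG (4.15, SE 0.56, adjusted p = 0.00684), with N at 1.62 and 1.04 CPM. MYT1, a zinc-finger factor of neurogenesis, was at 239 and 226 CPM in bIP against 21.6 and 21.5 in bRG (3.43, SE 0.40, adjusted p = 0.00547), and NPTX1, a neuronal pentraxin, at 322 and 628 CPM in bIP against 30.0 and 69.2 in bRG (3.26, SE 0.45, adjusted p = 0.00684). The channels CACNA1G, of the T-type calcium class, and ASIC1, which senses acid, were at 112 and 124 CPM in bIP against 14.3 and 15.2 in bRG (3.00, SE 0.31, adjusted p = 0.00547) and at 396 and 1123 CPM in bIP against 74.3 and 114 in bRG (3.01, SE 0.46, adjusted p = 0.0117). KLHL35 was at 236 and 502 CPM in bIP against 14.2 and 34.8 in bRG (3.91, SE 0.65, adjusted p = 0.0158). RGS4, a regulator of G protein signalling, was at 24.2 and 9.60 CPM in bIP against 2.20 and 1.26 in bRG (3.28, SE 0.66, adjusted p = 0.0381), and NPPA, a natriuretic peptide precursor, at 12.4 and 11.6 CPM in bIP against 1.43 and 1.42 in bRG (3.07, SE 0.65, adjusted p = 0.0495). FSTL5, a follistatin-like protein, was at 52.6 and 54.6 CPM in bIP against 6.29 and 7.404 in bRG (2.97, SE 0.47, adjusted p = 0.0128). The pseudogene RBM43P1 was at 5.63 and 16.4 CPM in bIP against 0.195 and 0.693 in bRG (4.62, SE 0.83, adjusted p = 0.0227), and its counts may be shared with its parent gene. RGS4 and NPPA lost the call without bIP replicate 1 (adjusted p = 0.331 and 0.155) and NPPA and RBM43P1 without bIP replicate 2 (adjusted p = 0.175 and 0.154). RGS4, NPPA and RBM43P1 lost the call without bRG replicate 1 (adjusted p = 0.0977 to 0.274) and RGS4 and NPPA without bRG replicate 2 (adjusted p = 0.201 and 0.227).

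Among the 20 largest falls TNFRSF12A, a TWEAK receptor, was at 8.74 and 2.64 CPM in bIP against 83.1 and 71.2 in bRG (−3.76, SE 0.63, adjusted p = 0.0167). ZFP36L1, which speeds decay of short-lived messages, was at 61.9 and 56.1 CPM in bIP against 793 and 398 in bRG (−3.34, SE 0.39, adjusted p = 0.00547). IQGAP3, a scaffold of proliferating cells, was at 7.57 and 7.71 CPM in bIP against 43.8 and 73.8 in bRG (−2.94, SE 0.49, adjusted p = 0.0167), and TROAP, a spindle protein, at 13.1 and 24.2 CPM in bIP against 90.2 and 179.9 in bRG (−2.86, SE 0.41, adjusted p = 0.00846). AHNAK, a large scaffold protein, was at 3.34 and 1.46 CPM in bIP against 32.4 and 15.0 in bRG (−3.30, SE 0.61, adjusted p = 0.0243), and ADAMTS15, a matrix protease, at 0.738 and 2.01 CPM in bIP against 15.2 and 11.6 in bRG (−3.29, SE 0.70, adjusted p = 0.0494). BST2, the antiviral tetherin, was at 3.88 and 4.25 CPM in bIP against 35.3 and 49.4 in bRG (−3.38, SE 0.72, adjusted p = 0.0495), and OAF at 2.37 and 4.64 CPM in bIP against 33.7 and 48.3 in bRG (−3.55, SE 0.73, adjusted p = 0.0422). IQGAP3, OAF, BST2 and ADAMTS15 lost the call without bIP replicate 1 (adjusted p = 0.0598 to 0.192) and TNFRSF12A, IQGAP3, OAF, BST2, AHNAK and ADAMTS15 without bIP replicate 2 (adjusted p = 0.0597 to 0.186). AHNAK and ADAMTS15 lost the call without bRG replicate 1 (adjusted p = 0.0532 and 0.0707). BST2 and ADAMTS15 lost the call with DESeq2 size factors (adjusted p = 0.0524 and 0.0523) and BST2 with at least 5 CPM in 2 libraries (adjusted p = 0.0508). ADAMTS15 lost the call with only the 4 libraries fitted (adjusted p = 0.0513).

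Markers of other cell types gave 2 calls, GFAP and BMP7, both lower in bIP. The inhibitory lineage genes summed to 78.5 and 40.6 CPM in bIP and 168 and 119 in bRG. The astroglia and oligodendrocyte genes summed to 65.4 and 49.1 CPM in bIP and 169.9 and 109 in bRG, with 1 of 15 called. Mesenchyme, vessel and immune genes summed to 216 and 208 CPM in bIP and 367 and 439.9 in bRG, with COL1A1, a fibrillar collagen, at 5.20 and 34.6 CPM in bIP against 102 and 113 in bRG (adjusted p = 0.259). The cortical hem genes, BMP7 among them, summed to 129 and 130.1 CPM in bIP and 185 and 228 in bRG, with a median of −1.30. Of 12 tested, 9 had both bIP libraries below both bRG libraries, beside 7344 of 35382 over all genes tested. These 4 sums were higher in both bRG libraries than in both bIP libraries, and their part in the results was not tested. The choroid plexus genes summed to 93.7 and 88.7 CPM in bIP and 106 and 93.5 in bRG, where the populations overlapped. PECAM1, which defines endothelium, was at 2.52 and 2.75 CPM in bIP against 2.85 and 2.49 in bRG, and SOX10, of the oligodendrocyte lineage and neural crest, at 3.77 and 1.02 CPM in bIP against 1.78 and 1.26 in bRG. Calls by edgeR were 0 in the choroid plexus, mesenchyme, inhibitory and pluripotency lists. At an unadjusted p under 0.05 those lists held 5, 2, 1 and 1 genes, and DESeq2 called 2, 0, 1 and 0.

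**Figure D4:**
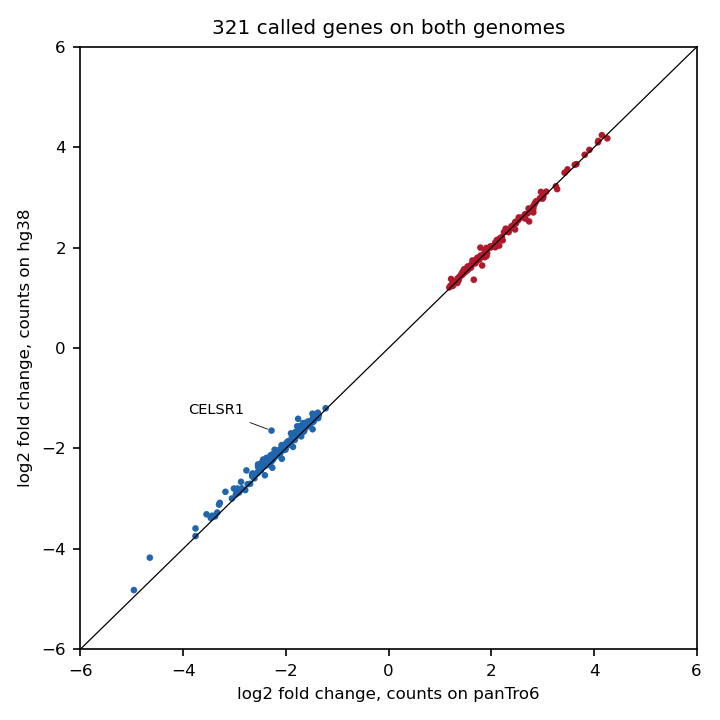
Log2 fold change, bIP minus bRG, of the 321 called genes present in both tables, from counts on panTro6 (horizontal) and on hg38 (vertical), with the diagonal drawn. All 321 lie on the same side of 0 in both, and CELSR1 is the farthest from the diagonal.

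The same libraries counted on the human genome gave the same directions. Of the 365 genes called on panTro6 321 were in the human table, all 321 had the same sign there and 319 were called again. The 2 that were not called there are GFAP (adjusted p = 0.0510 in the human table) and TUBB4B, a tubulin (0.0533). In all 484 genes were called on hg38, and the other 165 were not called on panTro6. Of these 151 were tested there, 151 with the same sign, with a median adjusted p of 0.0706, and 14 were not tested. The median absolute difference of log2 fold change between the genomes was 0.0498, and the largest was 0.634, for CELSR1, a planar polarity cadherin, at −2.28 on panTro6 and −1.65 on hg38. These are the same reads and not a second experiment. Of the 44 called genes without a human row 7 lie on the X chromosome, where the human table held 1 symbol of 16752 matched to RefSeq.

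Genes that rose had a longer median span than genes that fell. The median span from first to last annotated base, in RefSeq models of the assembly NHGRI_mPanTro3-v2.0, was 92.0 kb for 134 matched protein-coding genes higher in bIP and 35.0 kb for 190 matched genes lower in bIP. Over 10041 tested protein-coding genes with at least 10 CPM it was 36.2 kb. This difference was not tested. Counts do not tell the strands apart, and 53 of 162 matched genes named here overlap another RefSeq gene in that assembly. Whether counted reads lie in an overlap was not tested.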

How the data were processed

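The authors deposited unnormalized counts for each gene symbol, in 1 table on panTro6 and 1 on hg38. STAR was used, per the submitters' processing notes; no source used here gives its version, the annotation or the strand setting. Libraries followed a Smart-seq2 type protocol with 12 to 17 PCR cycles, per the labels' protocols, with no molecular identifiers named, so counts include PCR copies. Rows without a gene name held 0.00545% to 0.00771% of counts and were left out. No column lacked a sample.

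Counts of all 8 libraries were filtered with filterByExpr, TMM-scaled and fitted with edgeR 4.0.16 in R 4.3.3 (quasi-likelihood test, 4 residual degrees of freedom, common biological coefficient of variation 0.629). The contrast was bIP minus bRG, with Benjamini-Hochberg adjustment over all genes. DESeq2 1.42.0, other filters, scalings and sample sets were alternatives. With 1 library left out, the lone library of its population was assumed to vary like the others. In a simulation of this comparison over 32742 genes, 81 of 100 genes changed by log2 2 and 98 of 100 changed by log2 3 were recovered. Beside these 19 unchanged genes were called. The changed genes had a mean of at least 10 CPM, and counts were drawn with the spread of the same fit. Recovery of genes at lower levels was not tested.

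Genes were named by rule: the 20 largest rises and 20 largest falls among called genes with at least 10 CPM and separate libraries, up to 8 called members of each list in each direction, members whose role is described, and 5 identity genes. The lists held 630 genes in 29 lists. Members and lists were chosen with earlier results of these data known. MALAT1, TUBB4B and CELSR1 were chosen after their values were seen. Some list members are not reported here.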

Additional observations from a re-analysis of the deposited data

How the results depend on the processing

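Genes called numbered 365, 162 higher and 203 lower in bIP. They numbered 1178, 519 and 659 with DESeq2, and 1187, 493 and 694 without the low-count filter, each including all 365. With only the 4 libraries fitted 319 were called, 266 of them among the 365. A minimum of 5 CPM in 2 libraries left 14955 genes, of which 461 were called, 206 higher and 255 lower. The other alternatives shared 347 of the 365 with DESeq2 size factors, 356 with at least 5 CPM, 319 in the human table, 365 with halved counts and 365 with robust estimation, and 117 to 258 with 1 library left out. Leaving out 1 library gave 140 to 358 in all, 56 to 176 higher and 84 to 182 lower. The 2 shared replicate numbers are no stated pairing. Deviations of same-numbered bIP and bRG libraries correlated at 0.170 across genes. With the number as a replicate block, 1121 genes were called, 535 higher and 586 lower, including all 365, DNA replication falls numbered 17 and mitosis falls 29, and the basal radial glia median was −1.09 and the matrix and integrin median −0.61.

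Every list median below kept its sign under each alternative run. With 1 library left out it was 1.84 to 2.22 for intermediate progenitor genes, −1.79 to −1.39 for shared radial glia genes, −0.94 to −0.83 for basal radial glia genes and −1.51 to −1.07 for DNA replication. It was −0.48 to −0.12 for Notch, 0.43 to 1.11 for axon guidance and −0.78 to −0.55 for matrix and integrins. The basal radial glia median was −1.19 with a minimum of 5 CPM and −0.73 in the human table. The matrix median was −0.59 with DESeq2, −0.59 with DESeq2 size factors, −0.62 without the filter, −0.63 with a minimum of 5 CPM, −0.59 in the human table, −0.60 with 4 libraries and −0.61 with halved counts. The cause of these shifts was not tested. Some named genes without a call had log2 fold changes on both sides of 0. CCND2 was −0.34 to 0.41 with 1 library left out, −0.38 in the human table and −3.39e-05 with the replicate block. CDH2 was −0.0916 to 0.54 with 1 library left out. JUN was −0.16 to 0.17 with 1 library left out. LHX5 was −2.02 to 0.45 with 1 library left out. MOXD1 was −4.38 to 0.25 with 1 library left out. PARD3 was −0.59 to 0.12 with 1 library left out. PECAM1 was −0.12 to 0.0794 with 1 library left out, 0.00871 with DESeq2, 0.00869 with DESeq2 size factors and 0.15 in the human table. PENK was −0.80 to 0.0117 with 1 library left out. RBPJ was −0.14 to 0.22 with 1 library left out. SNAP25 was −0.0323 to 1.33 with 1 library left out. SOX10 was −0.58 to 1.30 with 1 library left out. The planned promoter alternative was not run, since no promoter sequence was used here.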

Other observations

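Some genes listed at 0 or not tested on panTro6 were called between the populations when the same libraries were counted on hg38. TACC3, a spindle protein, was at 20.4 and 35.9 CPM in bIP and 158 and 219 in bRG (log2 fold change −2.74, SE 0.34, adjusted p = 0.00477). TYRO3, a receptor kinase related to AXL, was at 44.1 and 31.1 CPM in bIP and 78.2 and 113 in bRG (log2 fold change −1.35, SE 0.29, adjusted p = 0.0369). METRN, a secreted protein of glia, was at 25.3 and 26.7 CPM in bIP and 78.2 and 75.5 in bRG (log2 fold change −1.56, SE 0.27, adjusted p = 0.0152). CBFA2T3, a corepressor, was at 51.9 and 60.6 CPM in bIP and 18.1 and 21.4 in bRG (log2 fold change 1.51, SE 0.27, adjusted p = 0.0175). All 4 were chosen after their values were seen. They have no counterpart in the panTro6 result, where 285 human symbols with at least 10 CPM are at 0 in all 8 libraries.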
